A study of Mus musculus with 5 samples.

Results

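Kidney repair after ischaemia is accompanied by secreted signals that can act on neighbouring fibroblasts, and 9 genes of this kind were followed in single-nucleus RNA sequencing of mouse kidney. They were selected by symbol, with no measured value used, from the 27998 genes of the deposited gene lists. Cyr61 and Ctgf encode matricellular proteins of the CCN family. Pdgfa and Pdgfb encode platelet-derived growth factor (PDGF) ligands and Pdgfrb their beta receptor. Tgfb1 and Tgfb2 encode transforming growth factor beta (TGF-beta) ligands, Edn1 encodes the precursor of endothelin 1, and Hbegf encodes heparin-binding EGF-like growth factor. All 9 were detected in each of the 5 libraries.

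The kidneys came from male mice, whose age at surgery is given as 10 to 12 weeks. Every animal, controls included, had 3 transgenes, namely Six2-TGC, Rosa26rtTA and pTRE-H2BeGFP, and received doxycycline food at 625 mg/kg from shortly after birth. Six2-TGC is expressed in nephron progenitors, so the doxycycline-dependent green fluorescent histone (GFP) was placed in nuclei of the nephron lineage. Stained nuclei were sorted by GFP. The 5 groups, each with 1 library, comprised uninjured kidneys sorted into a GFP-negative and a GFP-positive library, and a GFP-positive library at each of 64 h, 96 h and 28 d following ischaemia-reperfusion injury, for which both renal pedicles were clamped. Serum creatinine was 0.122 mg/dL for both libraries without injury and 0.375, 0.312 and 0.144 mg/dL at 64 h, 96 h and 28 d. No GFP-negative library after injury was analysed here, so stromal responses to injury were not measured. Whether the animals called uninjured had sham surgery, and how many animals each library held, is not clear from the labels.

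Each library held 3012 to 3508 barcodes and 1922002 to 7153971 unique molecular identifiers (UMIs), with medians of 507 to 1793.5 UMIs per kept nucleus. At most 20 barcodes were shared by any pair of libraries. The 96 h library was the shallowest, and 306 of its barcodes did not pass the filter on detected genes and mitochondrial UMIs. With 1 library a group there is no replicate, no test and no p-value. Levels are given as counts per 1000000 UMIs (CPM) of the summed nuclei, and ratios carry exact 95% Poisson intervals that cover counting error only. A gene counted as measured in a comparison with at least 10 UMIs over both sums, and as higher or lower from a ratio of 1.5. In a sum over nuclei, fewer cells of a type and less RNA per cell cannot be told apart. The 3 injury comparisons share the GFP-positive library without injury, so they are not independent of each other.

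Cells were grouped without using the 9 genes. Groups carry the suffix "-like" because their names rest on marker transcripts: PT-like for proximal tubule, TAL-like for thick ascending limb, and likewise for thin limb, endothelium, fibroblast, mural and mesangial cells, podocytes and others. The GFP gate did not separate lineages fully. The GFP-negative library held 383 PT-like and 479 TAL-like nuclei among 3338, whereas the GFP-positive libraries held 0 to 29 fibroblast-like nuclei each. In addition, 3 clusters led by injury genes were given no cell type name. The Havcr1-led cluster (Krt20, Havcr1, Csf1) made up 23.5% of nuclei at 64 h and 35% at 96 h. The Lcn2-led cluster (Clu, Lcn2), whose markers were closest to TAL, made up 8.53% and 11.4%. The Vcam1-led cluster (Vcam1, Cd44, Cdh6) made up 1.85% of nuclei without injury and 8.73% at 28 d.

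Cyr61 and Ctgf are transcribed when the co-activators YAP and TAZ enter the nucleus and bind TEAD factors, and both proteins bind integrins in the matrix. TGF-beta is secreted in a latent form and, once released, drives receptor-activated SMADs. PDGF ligands from epithelium and endothelium act on PDGF receptors of pericytes and fibroblasts, which are known as the source of matrix-forming cells in kidney fibrosis. Endothelin 1 constricts vessels through Ednra and Ednrb, and membrane-bound Hbegf is shed by metalloproteases to activate Egfr.

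RefSeq promoters (assembly GRCm38.p6) were matched for 5 of the 9 genes. The proximal promoters of Cyr61 and Edn1 are shown because both genes were higher in all 3 injured libraries and their windows are the ones of the 5 that hold a TEAD match, so the match was part of the choice. Tgfb1, also higher in all 3, has none. The runs give the 250 bases before the start site, 5′ to 3′ on the gene's strand, with matches in capitals. Cyr61 lies at chr3:145646976-145649981 on the minus strand of mm10, and its run at chr3:145649986-145650235. Edn1 lies at chr13:42301476-42307990 on the plus strand, and its run at chr13:42301226-42301475.
Cyr61: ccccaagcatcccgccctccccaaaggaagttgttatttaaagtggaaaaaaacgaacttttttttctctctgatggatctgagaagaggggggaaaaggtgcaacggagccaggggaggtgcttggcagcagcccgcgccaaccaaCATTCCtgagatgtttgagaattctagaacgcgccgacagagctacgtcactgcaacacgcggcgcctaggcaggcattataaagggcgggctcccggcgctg
Edn1: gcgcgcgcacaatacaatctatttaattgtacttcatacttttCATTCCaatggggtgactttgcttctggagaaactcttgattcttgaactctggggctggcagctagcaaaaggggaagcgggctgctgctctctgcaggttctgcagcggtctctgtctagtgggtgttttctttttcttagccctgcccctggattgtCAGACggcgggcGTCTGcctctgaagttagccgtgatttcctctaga
The capitals mark matches, on either strand, to the TEAD motif CATTCC and to the SMAD motif CAGAC. In the Cyr61 run the TEAD match lies at bases 148 to 153. In the Edn1 run it lies at bases 44 to 49, with SMAD matches at bases 204 to 208 and 216 to 220. The searched window also held 50 bases after the start, where Cyr61 had a SMAD match at bases 254 to 258. Over 32851 windows of this length a TEAD match was present in 14.7% and a SMAD match in 49.6%. The AP-1 motif TGANTCA, present in 7.81%, and the CArG box, present in 1.63%, had no match in either window. Tgfb2 had SMAD matches at bases 30 to 34 and 47 to 51 and no TEAD match, and the windows of Pdgfa and Tgfb1 had neither. A match is a description of letters and shows no binding.

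Against the uninjured GFP-positive library, over all nuclei, 7 of the 9 genes were at least 1.5-fold higher at 64 h, 8 of 9 at 96 h and 6 of 9 at 28 d, and none was lower. Among all measured genes, 25.8%, 36.7% and 17.0% were that much higher and 13.6%, 16.9% and 11.9% lower. With the counting interval also required to lie above 1, the counts were 6, 7 and 5, against 20.4%, 30.1% and 11.7% of all genes. The median log2 ratio of the 9 genes was 1.63, 1.39 and 0.74, against 0.16, 0.24 and 0.07 over all measured genes. Scaling by trimmed means of M-values (TMM) moved every log2 ratio by -0.19, -0.28 and -0.08, which left medians of 1.45, 1.11 and 0.67. Pdgfrb was the gene whose direction changed with that scaling, from 0.17 to -0.02 at 64 h. Without endothelium-like, fibroblast-like, mural-like, macrophage-like and podocyte-like nuclei, 8, 8 and 6 genes were higher, against 26.2%, 37.1% and 16.2% of all measured genes. Pdgfrb was then counted as lower at 28 d, as were 12.6% of all measured genes. It had 1 UMI against 9 and a ratio of 0.215 (0.00492 to 1.55), an interval that includes 1, so no direction was resolved.

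**Figure D1:**
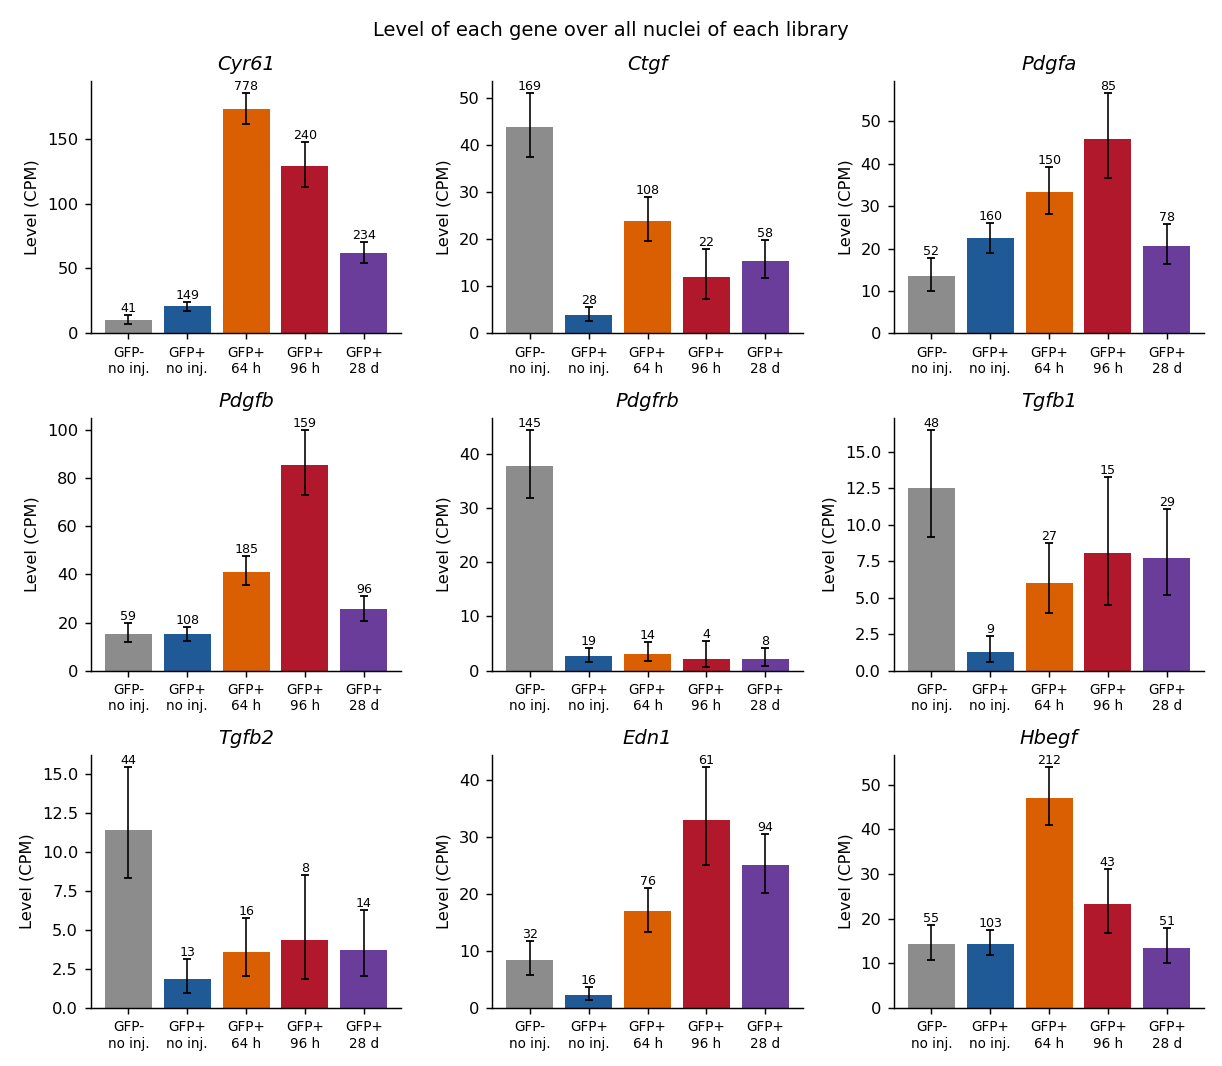
Level of each of the 9 genes over all nuclei of each library (CPM, linear axes from 0 that differ between panels; bars, summed nuclei; whiskers, exact 95% Poisson intervals, counting error only; numbers above bars, UMIs of the gene; 1 library a group). Cyr61 and Edn1 lie above the GFP-positive library without injury at all 3 times, whereas Pdgfrb and Ctgf are highest in the GFP-negative library.

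The matricellular gene Cyr61 had the highest point estimate of the 9 ratios at 64 h, with an interval that overlapped those of Edn1, Ctgf and Tgfb1, and a smaller one later. Its level was 10.7 CPM in the GFP-negative library and 20.8 CPM in the GFP-positive library without injury, then 173, 129 and 62.1 CPM at 64 h, 96 h and 28 d. All 3 injured libraries lay above both uninjured ones, and their counting intervals did not overlap. The ratios to no injury were 8.3 (6.96 to 9.96), 6.21 (5.04 to 7.67) and 2.98 (2.42 to 3.69).

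In PT-like nuclei Cyr61 was at 18.5 CPM without injury and at 123, 128 and 39.3 CPM in time order afterwards. The ratios were 6.63 (5.17 to 8.56), 6.9 (5.08 to 9.38) and 2.12 (1.57 to 2.87). Different clusters held most PT-like nuclei in each library: clusters 9 and 10 in the uninjured library, cluster 11 at 64 h, cluster 16 at 96 h, and clusters 15 and 9 at 28 d. Within cluster 9 the uninjured level was 9.29 CPM, the 64 h level 102 CPM and the 28 d level 25.8 CPM. Within cluster 10 the levels in the same order were 17.4, 80.6 and 51 CPM. Cluster 11 started from 52.8 CPM in the uninjured library and stood at 128 CPM at 64 h, 86.2 CPM (17.8 to 252) at 96 h and 66.5 CPM (26.7 to 137) at 28 d. Cluster 15, the largest PT-like cluster at 28 d with 658 nuclei, had 27.5 CPM (13.2 to 50.6) without injury, 83.3 CPM (30.6 to 181) at 64 h, 37.8 CPM (4.58 to 137) at 96 h and 26.6 CPM (15.5 to 42.6) at 28 d. At 64 h the level was thus above no injury in clusters 9, 10, 11 and 15, with overlapping intervals in cluster 15. At 28 d the intervals were apart in cluster 10 only among these 4, and at 96 h clusters 11 and 15 held too few UMIs to resolve a difference. Thinned to 600 UMIs a nucleus, a Cyr61 UMI was found in 0.958% of uninjured PT-like nuclei and in 7.24%, 9.93% and 2.03% at the 3 times. At 96 h, 272 nuclei were deep enough for thinning and 1128 were left out. The unthinned shares were 3.48%, 13.6%, 5.71% and 3.83%.

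The 7 immediate early genes followed (Fos, Fosb, Jun, Junb, Egr1, Atf3, Ier2) encode transcription factors or regulators induced within minutes of a stimulus. Of these, 6 were detected in PT-like nuclei of each GFP-positive library, with Fosb at 0. Their sum stood at 47.2 CPM in PT-like nuclei without injury and at 78.2, 161 and 55.1 CPM at 64 h, 96 h and 28 d. Their part in the Cyr61 result was not tested.

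The nuclei that supplied Cyr61 differed between times. PT-like nuclei held 60.4% of the library's Cyr61 UMIs without injury and 29.3%, 35.8% and 38.5% after injury. The Havcr1-led cluster held 49.1% at 64 h and 49.6% at 96 h, and the Vcam1-led cluster held 40.2% at 28 d while making up 8.73% of nuclei. In the Havcr1-led cluster Cyr61 was at 261 CPM at 64 h, against 123 CPM in PT-like nuclei of the same library, a ratio of 2.12 (1.8 to 2.51). At 96 h the levels were 144 and 128 CPM, a ratio of 1.13 (0.847 to 1.5). Thin limb-like nuclei had 84.1 CPM without injury and 181 CPM at 64 h, a ratio of 2.15 (1.18 to 3.92). TAL-like nuclei of the GFP-positive libraries held no Cyr61 UMI without injury and 6 at 64 h, and those of the GFP-negative library held 3 (4.99 CPM).

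**Figure D2:**
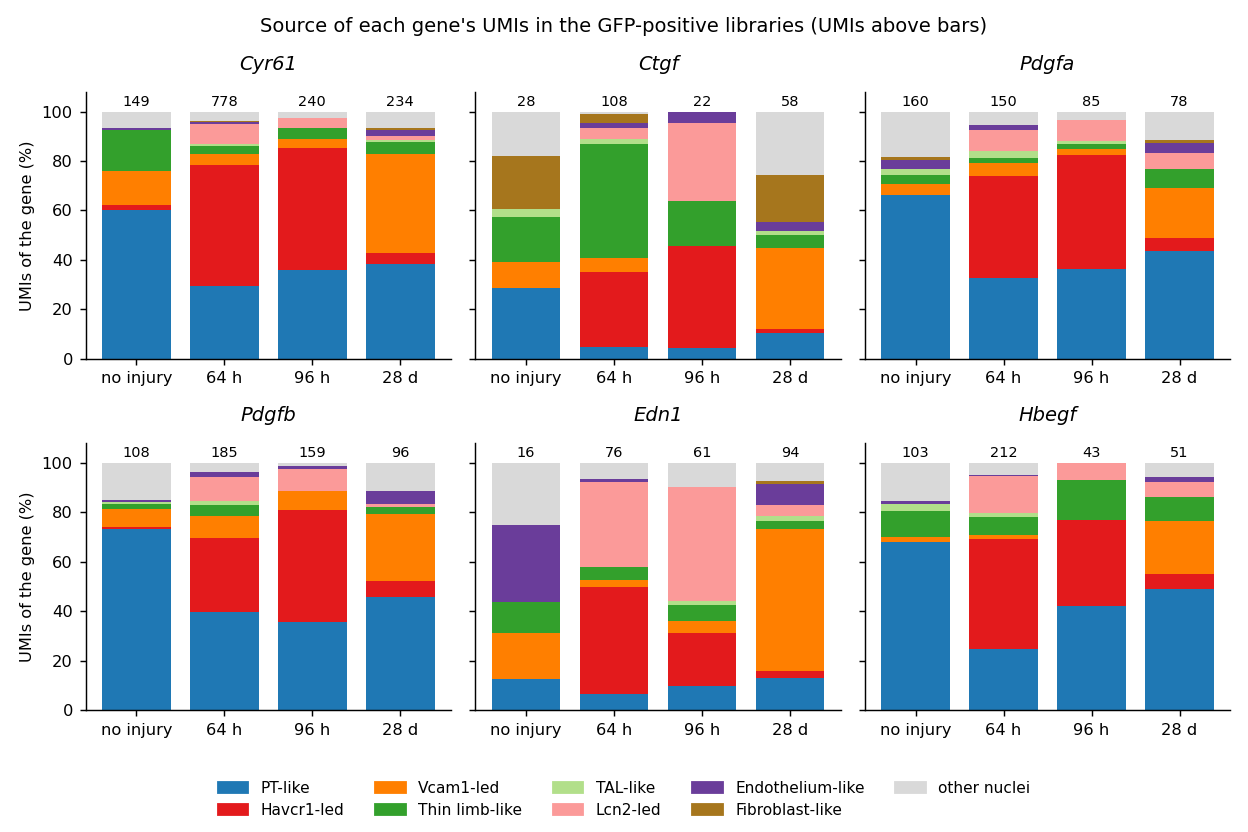
For Cyr61, Ctgf, Pdgfa, Pdgfb, Edn1 and Hbegf, the share of each gene's UMIs that came from each group of nuclei (percent of the library's UMIs of that gene) in the 4 GFP-positive libraries, with the UMI count of the gene above each bar. For Cyr61 the PT-like share falls from 60.4% without injury to 29.3% at 64 h, and the Vcam1-led share is 40.2% at 28 d.

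Ctgf, at chr10:24595442-24598683 on the plus strand, followed a different distribution. It was at 43.9 CPM in the GFP-negative library, at 3.91 CPM in the GFP-positive library without injury, and at 24, 11.9 and 15.4 CPM at 64 h, 96 h and 28 d. The GFP-negative library was the highest of the 5, and the 3 injured libraries lay between the uninjured ones. The ratios to no injury were 6.13 (4.01 to 9.65), 3.03 (1.65 to 5.49) and 3.93 (2.46 to 6.41).

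PT-like nuclei contributed few Ctgf UMIs: 8 without injury, then 5, 1 and 6. The ratio there at 64 h was 1.64 (0.421 to 5.67), and 0.914 without barcodes over 4 times the median UMIs, so no direction was resolved. Thin limb-like nuclei held 5 Ctgf UMIs without injury (16.8 CPM) and 50 at 64 h (377 CPM), then 4 and 3. The 64 h ratio was 22.4 (8.98 to 72), and 46.3% of that library's Ctgf came from these 82 nuclei. In this group 5 nuclei held 31 of the 50 UMIs, and without them the level was 160 CPM. A UMI was found in 16 of the 82 nuclei, and after thinning in 17.1% of 76 nuclei, against 0.478% of 209 without injury. Parietal epithelium markers moved with this result: all 6 were detected at 64 h, summing to 4663 CPM, against 5 of 6 and 1789 CPM without injury, where Dkk3 was at 0. The 8 thin limb markers summed to 2290 CPM at 64 h and 3417 CPM without injury. Proliferation markers (Mki67, Top2a, Cenpf, Kif11) were all detected in them at 64 h, at 444 CPM, against 1 of 4 and 3.36 CPM without injury, and immediate early genes stood at 226 and 47.1 CPM. The part of these markers in the Ctgf result was not tested.

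The Havcr1-led cluster held 33 Ctgf UMIs at 64 h (22.5 CPM), against 2.7 CPM in PT-like nuclei, a ratio of 8.35 (3.24 to 27.4). Of these UMIs 19 came from 5 of its 709 nuclei, and without those the level was 9.66 CPM. At 28 d the Vcam1-led cluster held 19 of the 58 Ctgf UMIs (32.8%) and 24 fibroblast-like nuclei held 11 (19%).

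In the GFP-negative library Ctgf was at 206 CPM in fibroblast-like nuclei (88 of 169 UMIs), a ratio of 44.2 (16.7 to 166) to PT-like nuclei. It was at 190 CPM in mural-like nuclei on 7 UMIs, 35.4 CPM in collecting duct principal-like nuclei on 21 UMIs and 4.66 CPM in PT-like nuclei on 4. Podocyte-like nuclei had 542 CPM from 20 UMIs in 23 nuclei, and 201 CPM without the 5 richest. Ctgf was thus present in stromal-like and podocyte-like nuclei in the absence of injury.

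In PT-like nuclei both PDGF ligand genes were higher at 96 h, and at 28 d neither differed from no injury beyond counting error. Pdgfb (chr15:79995874-80014977, minus strand) encodes the B chain that binds Pdgfrb with high affinity. Its level was 15.3 CPM in the GFP-negative library, 15.1 CPM in the GFP-positive library without injury, and 41.1, 85.7 and 25.5 CPM at 64 h, 96 h and 28 d. The 96 h library was the highest, and all 3 injured libraries lay above both uninjured ones. The ratios were 2.72 (2.14 to 3.49), 5.67 (4.42 to 7.31) and 1.69 (1.27 to 2.24).

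In PT-like nuclei Pdgfb was at 16.3 CPM without injury, then 39.4, 84.8 and 19.2 CPM. The 96 h ratio was 5.21 (3.64 to 7.42) and the 28 d ratio 1.18 (0.798 to 1.73), so by 28 d the difference in PT-like nuclei was within counting error. Cluster 16, which held 1208 of the 1400 PT-like nuclei at 96 h, had 92.6 CPM at 96 h, 52.8 CPM at 64 h and 57.6 CPM at 28 d. At 28 d the large PT-like clusters did not move one way. Cluster 9 had 19.8 CPM (13.6 to 28) without injury and 7.36 CPM (2.01 to 18.8) at 28 d, cluster 10 had 11.9 CPM (7.63 to 17.7) and 22.9 CPM (12.2 to 39.1), and cluster 15 had 8.25 CPM (1.7 to 24.1) and 21.9 CPM (12 to 36.8), with overlapping intervals in each. The Havcr1-led cluster differed from PT-like nuclei within counting error, with ratios of 0.971 (0.673 to 1.39) at 64 h and 1.03 (0.717 to 1.48) at 96 h. The Vcam1-led cluster lay above PT-like nuclei in every library, at 62.5 CPM without injury and 125, 244 and 61.8 CPM after it. Its ratios to PT-like nuclei were 3.84 (1.6 to 7.94), 3.16 (1.72 to 5.49), 2.87 (1.4 to 5.41) and 3.21 (1.9 to 5.33). The cluster's level rests on 8 UMIs from 4 of 65 nuclei without injury and on 16 UMIs at 64 h, 6 of them in 1 nucleus. At 96 h 12 UMIs came from 10 nuclei, and at 28 d 26 came from 22. The intervals do not cover such concentration in few nuclei.

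Pdgfa (chr5:138976014-138997370, minus strand), which encodes the A chain that acts through the alpha receptor, moved less. It was at 13.5 CPM in the GFP-negative library, 22.4 CPM in the GFP-positive library without injury, and 33.3, 45.8 and 20.7 CPM after injury. The ratios were 1.49 (1.18 to 1.87), 2.05 (1.55 to 2.68) and 0.926 (0.697 to 1.22), so the 28 d library lay at the uninjured level within counting error. In PT-like nuclei they were 1.21 (0.844 to 1.71), 2.11 (1.37 to 3.18) and 0.68 (0.448 to 1.01).

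Without injury, endothelium-like nuclei of the GFP-negative library held 36 of its 59 Pdgfb UMIs. The level there was 79.3 CPM (55.6 to 110), 11.3 times (4.73 to 32.9) that of PT-like nuclei of the same library, at 6.99 CPM on 6 UMIs. In the uninjured GFP-positive library PT-like nuclei were at 16.3 CPM, and 46 endothelium-like nuclei held 1 UMI, at 8.49 CPM (0.215 to 47.3). Endothelium-like nuclei of the injured GFP-positive libraries stood at 79.7 CPM (21.7 to 204) at 64 h. At 28 d they stood at 54.4 CPM (17.7 to 127). These levels rest on 4 and 5 UMIs, and their intervals overlap that of the GFP-negative library. At 96 h 3 such nuclei held 2 UMIs. Pdgfb is a known product of endothelial cells that recruits pericytes.

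The receptor gene Pdgfrb lies on the plus strand at chr18:61045150-61085061. It was at 37.7 CPM in the GFP-negative library and at 2.66, 3.11, 2.15 and 2.12 CPM in the GFP-positive libraries without injury and at 64 h, 96 h and 28 d. The GFP-negative library stood 14.2 times (8.77 to 24.3) above the GFP-positive one. The injured libraries did not differ from no injury beyond counting error, with 14, 4 and 8 UMIs against 19. The 28 d ratio of 0.8 had an interval of 0.303 to 1.91, which leaves changes of that size undetectable at this depth.

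Within the GFP-negative library, fibroblast-like nuclei held 126 of the 145 Pdgfrb UMIs and mural-like nuclei 6, together 91% (85.2% to 95.1%, exact binomial). Among the named groups the order of levels was fibroblast-like at 295 CPM (246 to 351), mural-like at 163 CPM (59.8 to 354), podocyte-like at 81.4 CPM (16.8 to 238), DCT-like (distal convoluted tubule) at 8.81 CPM, PT-like at 4.66 CPM (1.27 to 11.9), intercalated-like at 4.09 CPM and TAL-like at 3.32 CPM. The intervals of fibroblast-like and mural-like nuclei overlapped, as did those of mural-like and podocyte-like nuclei, whose 3 UMIs came from 1 nucleus. The levels from DCT-like to TAL-like nuclei rest on 1 to 4 UMIs each and were not told apart. No Pdgfrb UMI was found in 786 endothelium-like, 448 collecting duct principal-like or 119 macrophage-like nuclei, which allows up to 6.61, 5.06 and 44.3 CPM. The fibroblast-like level was 63.3 times (24.1 to 236) and the mural-like level 34.9 times (8.28 to 168) that of PT-like nuclei. A Pdgfrb UMI was found in 107 of 520 fibroblast-like nuclei at a median depth of 734 UMIs, and in 4 of 383 PT-like nuclei at 2240 UMIs. The group with the lower share was the deeper one.

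**Figure D3:**
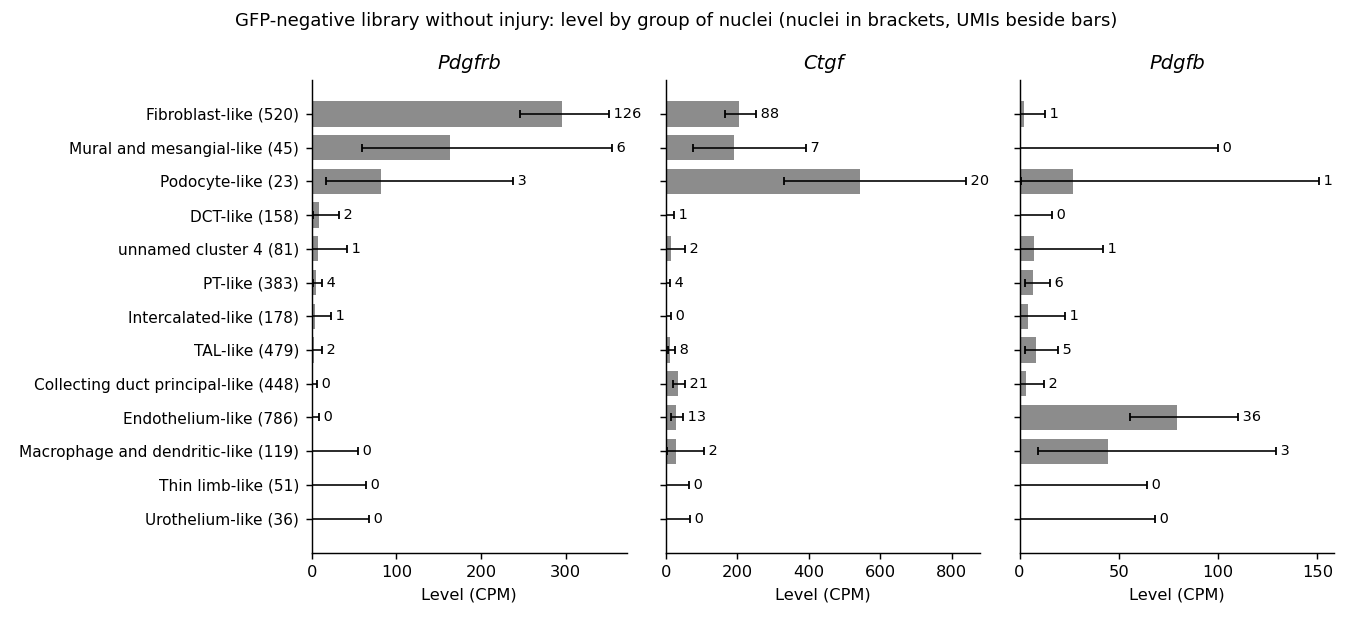
Levels of Pdgfrb, Ctgf and Pdgfb (CPM) by group of nuclei in the GFP-negative library without injury, for groups of at least 20 nuclei (number in parentheses; bars, summed nuclei; whiskers, exact 95% Poisson intervals, counting error only; numbers beside bars, UMIs of the gene). Pdgfrb is highest in fibroblast-like nuclei at 295 CPM, whereas Pdgfb is at 79.3 CPM in endothelium-like nuclei.

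In the GFP-positive libraries the few fibroblast-like nuclei still held much of the Pdgfrb signal: 8 of 19 UMIs without injury, 8 of 14 at 64 h and 7 of 8 at 28 d, from 29, 11 and 24 nuclei. At 96 h the Havcr1-led cluster held 3 of the 4 UMIs and endothelium-like nuclei the other. PT-like nuclei held 7, 2, 0 and 0 UMIs. The Havcr1-led cluster also held 3 at 64 h, which put it at 2.05 CPM then and at 3.64 CPM at 96 h. The Vcam1-led and Lcn2-led clusters held no Pdgfrb UMI in any GFP-positive library, and in the 288 Vcam1-led nuclei at 28 d this allows up to 7.13 CPM. Fibroblast markers summed to 24.2 CPM over all nuclei without injury and 42.7, 18.9 and 37.7 CPM after injury, against 610 CPM in the GFP-negative library, with 7 or 8 of 8 detected. In Vcam1-led nuclei at 28 d, 7 of these 8 markers, Pdgfra and Col1a1 among them, were at 0.

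The TGF-beta ligands gave low counts. Tgfb1 (chr7:25687002-25705077, plus strand) was at 12.5 CPM in the GFP-negative library (48 UMIs) and at 1.26 CPM (9 UMIs) in the GFP-positive library without injury. After injury it was at 6, 8.08 and 7.7 CPM (27, 15 and 29 UMIs). All 3 injured libraries lay between the uninjured ones, with ratios to the GFP-positive library of 4.77 (2.18 to 11.5), 6.42 (2.63 to 16.6) and 6.12 (2.82 to 14.7). PT-like nuclei held only 5, 3, 2 and 3 of these UMIs. At 64 h the Havcr1-led cluster held 10 and thin limb-like nuclei 7 (52.7 CPM). At 28 d the Vcam1-led cluster held 9 (21.4 CPM) and 31 macrophage-like nuclei 7 (216 CPM). Macrophage markers over all nuclei stood at 38.6 CPM without injury and 65.3 CPM at 28 d, with Itgam at 0 in both. Without the stromal, immune and podocyte nuclei the 28 d ratio of Tgfb1 was 4.6 (1.92 to 12.2).

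In the GFP-negative library Tgfb1 was held by endothelium-like nuclei (21 UMIs, 46.3 CPM), fibroblast-like nuclei (13 UMIs, 30.4 CPM) and macrophage-like nuclei (7 UMIs, 103 CPM). PT-like nuclei there held none. With 3 counts set in place of 0, the ratios to them were 13.2 for endothelium-like and 8.7 for fibroblast-like nuclei, which leaves out counting error in the higher sums.

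Tgfb2 (chr1:186622792-186705989, minus strand), an isoform with its own gene and a shared receptor complex, was at 11.4 CPM in the GFP-negative library and at 1.82, 3.56, 4.31 and 3.72 CPM in the GFP-positive ones. The counts of 13, 16, 8 and 14 UMIs gave ratios of 1.96 (0.882 to 4.42), 2.37 (0.852 to 6.17) and 2.04 (0.892 to 4.72). All 3 point estimates lay above 1.5 and all 3 intervals included 1, so a difference was not resolved at this depth. Fibroblast-like (13 UMIs) and endothelium-like (11 UMIs) nuclei held most of it in the GFP-negative library.

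Edn1 was held most by endothelium-like nuclei without injury and by injury-led clusters after it. It was at 8.32 CPM in the GFP-negative library and at 2.24 CPM (16 UMIs) in the GFP-positive library without injury. After injury it was at 16.9, 32.9 and 25 CPM, above both uninjured libraries at each time. The ratios to the GFP-positive library were 7.55 (4.36 to 13.9), 14.7 (8.37 to 27.3) and 11.2 (6.52 to 20.3). In the GFP-negative library endothelium-like nuclei held 16 of 32 UMIs, at 35.3 CPM, at least 10.1-fold above PT-like nuclei, where none was found. Endothelial cells are the textbook source of endothelin 1.

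After injury most Edn1 came from the 3 injury-led clusters. At 64 h the Havcr1-led cluster held 43.4% of the UMIs and the Lcn2-led cluster 34.2%, and at 96 h the Lcn2-led cluster held 45.9%. At 28 d the Vcam1-led cluster held 57.4%. In the Lcn2-led cluster the level was 92.5 CPM at 64 h and 168 CPM at 96 h, against 2.7 and 8.93 CPM in PT-like nuclei. Those ratios were 34.3 (13 to 114) and 18.9 (7.66 to 55.7). The Lcn2-led cluster was closest to TAL, so segment and injury cannot be told apart in them. Without the 5 richest nuclei the Lcn2-led levels were 58.1 and 122 CPM. At 28 d 4 UMIs remained there, at 49.3 CPM.

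In the Vcam1-led cluster Edn1 was at 23.4 CPM without injury on 3 UMIs and at 128 CPM at 28 d on 54 UMIs, a ratio of 5.47 (1.78 to 27.4). The 54 UMIs came from 41 of 288 nuclei, and the level without the 5 richest was 97.1 CPM. PT-like nuclei at 28 d were at 5.24 CPM, so the Vcam1-led level was 24.5 times theirs (12.9 to 50.2). Thinned to 600 UMIs, 9.06% of Vcam1-led nuclei held an Edn1 UMI at 28 d, and 14.2% did so unthinned. Immediate early genes in this cluster summed to 148 CPM without injury and 166 CPM at 28 d, and to 55.1 CPM in PT-like nuclei at 28 d. Their part in the Edn1 result was not tested.

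**Figure D4:**
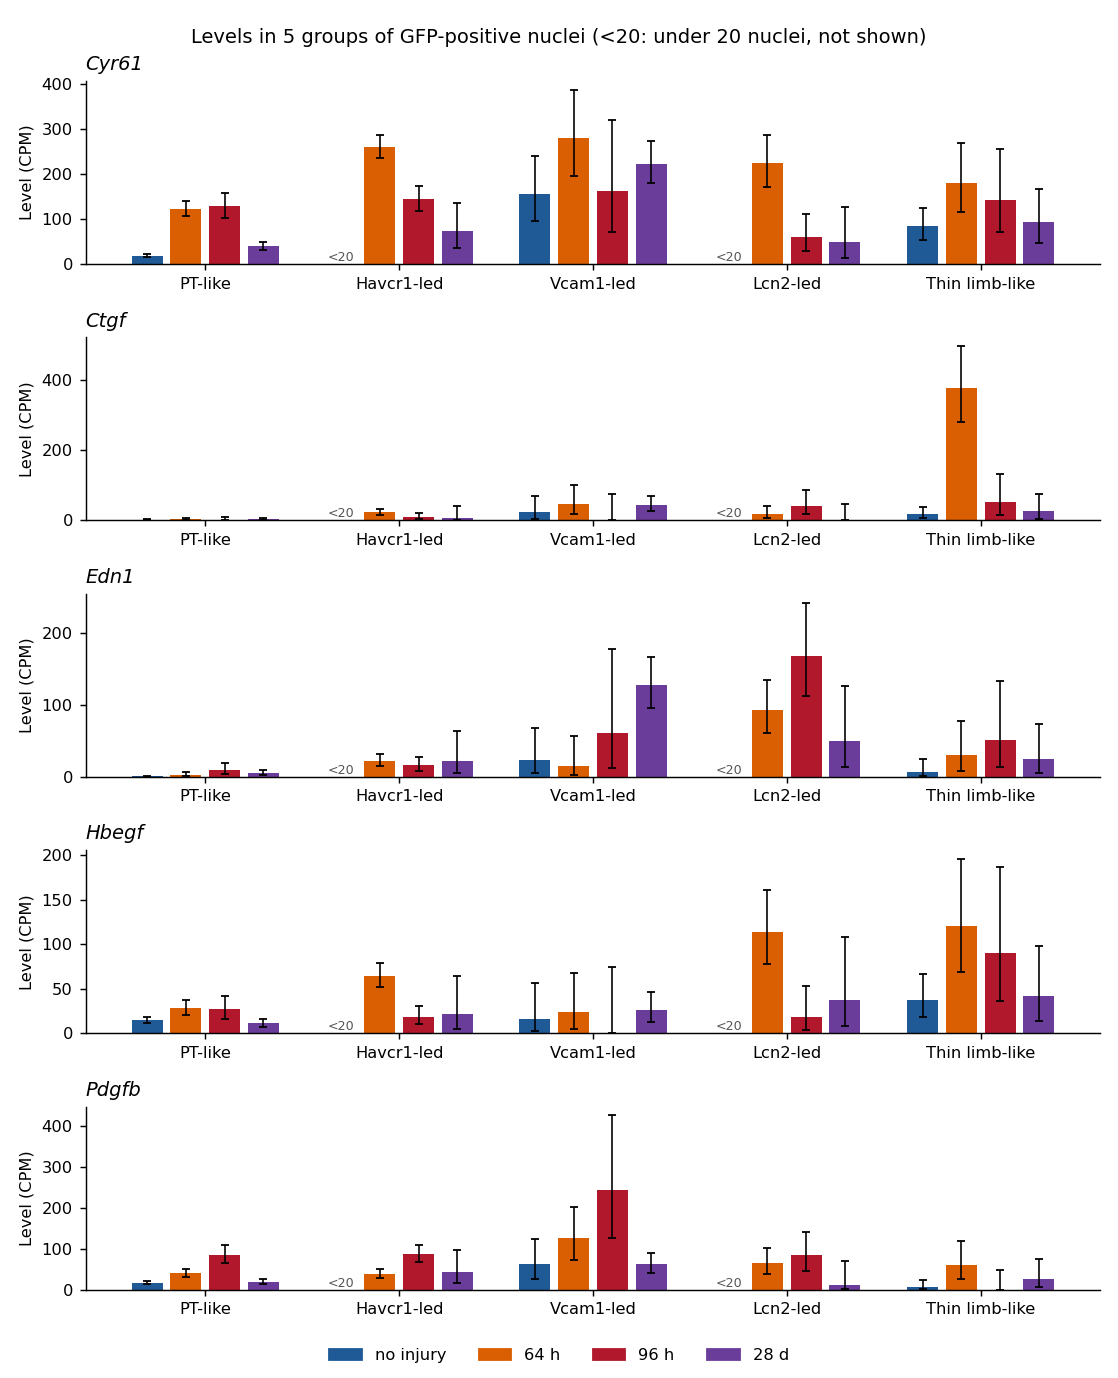
Levels of Cyr61, Ctgf, Edn1, Hbegf and Pdgfb (CPM, bars from 0) in 5 groups of nuclei by time in the GFP-positive libraries, with exact 95% Poisson intervals as whiskers (counting error only); "<20" marks groups of under 20 nuclei, which are not shown. Edn1 is at 168 CPM in Lcn2-led nuclei at 96 h and at 128 CPM in Vcam1-led nuclei at 28 d.

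Hbegf (chr18:36504927-36515805, minus strand) was high early and at the uninjured level late. It was at 14.3 CPM in the GFP-negative library, 14.4 CPM in the GFP-positive library without injury, and 47.1, 23.2 and 13.5 CPM at 64 h, 96 h and 28 d. The ratios were 3.27 (2.57 to 4.18), 1.61 (1.1 to 2.32) and 0.94 (0.659 to 1.33). The 96 h log2 ratio of 0.65 became 0.37 with TMM scaling, under the 1.5-fold limit.

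PT-like nuclei held 68% of the Hbegf UMIs without injury and 24.5% at 64 h, when the Havcr1-led cluster held 44.8%. At 64 h Hbegf was at 28 CPM in PT-like nuclei, 64.8 CPM in Havcr1-led, 114 CPM in Lcn2-led and 121 CPM in thin limb-like nuclei. Vcam1-led nuclei, at 23.4 CPM (4.82 to 68.2), and TAL-like nuclei, at 12 CPM (2.47 to 35.1), had 3 UMIs each and were not told apart from PT-like ones. For the Havcr1-led, Lcn2-led and thin limb-like nuclei the ratios to PT-like nuclei were 2.31 (1.63 to 3.31), 4.06 (2.53 to 6.42) and 4.3 (2.29 to 7.65). Segment and injury cannot be told apart in the ratios of thin limb-like nuclei and of the Lcn2-led cluster, which was closest to TAL. In PT-like nuclei themselves the 64 h ratio to no injury was 1.94 (1.33 to 2.82). In the Lcn2-led cluster Hbegf was lower at 96 h than at 64 h, at 18 CPM on 3 UMIs, with a ratio of 0.159 (0.0311 to 0.507). Cyr61 in the same cluster was at 224 CPM at 64 h and 60.1 CPM at 96 h, a ratio of 0.268 (0.123 to 0.527). Edn1 there differed the other way, with a ratio of 1.82 (1.03 to 3.23).

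The 9 genes were next read by segment, with each injury-led cluster set against PT-like nuclei of the same library. In the Havcr1-led cluster 6 of 7 measured genes were higher at 64 h (19.4% of all measured genes) and 2 of 6 at 96 h (17.5%). In the Lcn2-led cluster 6 of 6 were higher at 64 h (28.2%), whereas at 96 h Edn1 was higher (27.0%) and Cyr61 lower (29.5%) among 5. Because the markers of that cluster were closest to TAL, a difference of segment and one of injury cannot be told apart there. In the Vcam1-led cluster 4 of 5 were higher without injury (27.8%) and 4 of 5 at 64 h (23.0%). At 96 h 1 of 4 was higher (24.6%) and Hbegf was counted as lower (34.7%). That Hbegf call rests on 0 UMIs in 66 nuclei, which allows up to 60.9 CPM, against 26.8 CPM in PT-like nuclei. No direction was resolved for it. At 28 d 8 of 8 were higher (21.5%). For all 8 the counting interval lay above 1, which held for 11.5% of all measured genes. Pdgfrb was the gene not measured there. Tgfb1, Tgfb2 and Ctgf had 3, 5 and 6 UMIs in PT-like nuclei at 28 d and reached the minimum of 10 only with the cluster's UMIs. With so few UMIs in the larger PT-like sum, reaching 10 already required a ratio above 1.5. Their calls as higher were thus fixed by the minimum, and the 8 of 8 cannot be read against the share of all genes. At 64 h Edn1 and Ctgf, with 5 UMIs each in PT-like nuclei, also passed only with the cluster's UMIs in the Havcr1-led and Lcn2-led comparisons. The same held for Tgfb1, with 3, in the Havcr1-led one. It held for Ctgf in the Vcam1-led comparisons without injury and at 64 h, with 8 and 5 UMIs in PT-like nuclei. At 96 h it held for Ctgf (1 UMI) and Edn1 (6 UMIs), the higher genes of the Havcr1-led comparison, and for Edn1 in the Lcn2-led one. Calls of such genes were wholly or partly set by the minimum, so these counts describe the measured genes and not all 9. The Vcam1-led cluster already differed from PT-like nuclei without injury, with Cyr61 at 156 CPM and a ratio of 8.43 (4.91 to 13.8). Compared with its own uninjured nuclei, the 28 d Vcam1-led cluster had Cyr61 at a ratio of 1.43 (0.875 to 2.45), Pdgfb at 0.988 (0.435 to 2.53) and Edn1 at 5.47. Of 7 measured genes 4 were higher (26.3%), and the interval lay above 1 for 1 of them, Edn1 (4.21%). Parietal epithelium markers were detected in full in these nuclei, at 2125 CPM without injury and 2041 CPM at 28 d, against 391 and 410 CPM in PT-like nuclei.

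Within PT-like nuclei 4 of 5 measured genes were higher at 64 h (24.3%), 4 of 4 at 96 h (37.4%) and 4 of 7 at 28 d (16.5%), and none was lower (16.4%, 17.9% and 12.2%). The counting interval lay above 1 for 3, 4 and 2 of them, against 17.9%, 25.6% and 9.86% of all measured genes. A gene measured only through the library where it is high had to differ, so these counts describe the measured genes and not all 9. At 28 d the genes were Cyr61, Edn1 (12 UMIs against 2, a ratio of 12.7 with an interval of 2.83 to 117), Tgfb2 and Ctgf. Without the 5 nuclei of each library richest in the gene, 1 was left. When the 9 genes were allowed among the genes used for clustering, 8 were counted as higher at 96 h, where only 4 were measured in the main setting. The sets of measured genes thus differ. No share of all genes is given for these alternatives, and they describe the processing only. TAL-like nuclei held too few UMIs for any of the 9 genes to be measured (21.4%, 28.6% and 23.6% of measured genes were higher there). With the Lcn2-led cluster added, 5 of 5 measured genes were higher at 64 h (23.4%) and 4 of 4 at 96 h (33.5%). There Cyr61 stood at 69 UMIs against 0 at 64 h, and Edn1 at 26 against 0. With 3 counts set in place of 0 the ratios were 17.2 and 6.48, which leaves out counting error in the injured sums. Hbegf stood at 35 UMIs against 3, a ratio of 8.73. The uninjured library held no Lcn2-led nuclei, and each of these genes reached 10 UMIs only with the injured sum. At so few uninjured UMIs the minimum largely fixed the calls, so they cannot be read against the shares of all genes.

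The GFP-negative and GFP-positive libraries without injury differed in 7 of the 9 genes. Ctgf, Pdgfrb, Tgfb1, Tgfb2 and Edn1 were at least 1.5-fold higher in GFP-negative nuclei (40.0% of all measured genes were) and Cyr61 and Pdgfa were lower (10.7%). Cyr61 stood at a ratio of 0.512 (0.353 to 0.727), and Pdgfb and Hbegf at 1.02 and 0.993.

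Genes that act with these ligands were followed in PT-like nuclei by lists drawn up with earlier results of these data known. Of 14 YAP and TEAD target genes besides Cyr61 and Ctgf, 6 of 10 measured were higher at 64 h and 1 lower, 9 of 11 were higher at 96 h, and 2 of 10 were higher and 1 lower at 28 d. Of all genes measured in PT-like nuclei, 24.3%, 37.4% and 16.5% were higher at the 3 times and 16.4%, 17.9% and 12.2% lower, so the 28 d count lay near that background. Their median log2 ratios were 1.06, 1.51 and 0.39, against 0.12, 0.26 and 0.06 over all genes. The kinase gene Nuak2 stood at 3.74 (3.36 to 4.16) and 4.03 (3.51 to 4.61), and the angiomotin family gene Amotl2 at 3.48 (2.85 to 4.25), 3.59 (2.75 to 4.66) and 1.93 (1.55 to 2.4). Ankrd1, which encodes a cardiac ankyrin repeat protein, stood at 5.3 (1.94 to 16.7) at 28 d. Of the pathway's own 15 components, 2 of 13 were higher at 64 h, 4 of 13 at 96 h with 1 lower, and 3 of 14 at 28 d, against the same 24.3%, 37.4% and 16.5%, so these counts did not stand out from all measured genes. Wwc1, which encodes the upstream regulator KIBRA, stood at 3.35 (3.03 to 3.7) at 64 h and 2.71 (2.34 to 3.13) at 96 h.

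Of 11 SMADs and feedback regulators, 5 were higher at 64 h with 1 lower, 5 at 96 h and 3 at 28 d, against 24.3%, 37.4% and 16.5% of all genes measured in PT-like nuclei, a background that the 96 h count lay near. The inhibitory SMAD gene Smad6 stood at 4.49 (2.23 to 9.38) at 64 h and 15 (7.66 to 30.6) at 96 h, Smad7, another inhibitor, at 1.82 and 2.51, and the signal-transducing Smad3 at 2.39, 1.89 and 1.56. Among 3 or 4 measured TGF-beta ligands and receptors, the type II receptor gene Tgfbr2 stood at 2.34 (1.9 to 2.87), 1.2 and 0.849, and the co-receptor gene Tgfbr3 at 0.523, 0.289 and 0.764. Of the genes for latency and activation, 2 of 6, 2 of 5 and 2 of 6 were higher (24.3%, 37.4% and 16.5% of all genes) and 0, 2 and 1 lower (16.4%, 17.9% and 12.2%). Itgav, the alpha subunit of integrins that release TGF-beta, stood at 1.76 (1.6 to 1.93) at 64 h, while Itgb6, which encodes a partner subunit, was lower at 96 h (0.599) and 28 d (0.476, 0.439 to 0.514).

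Of the other PDGF genes 3 were measured in PT-like nuclei, and none passed 1.5-fold at 64 h or 28 d, whereas 1 was higher and 1 lower at 96 h. Pdgfc stood at 0.934, 0.499 (0.397 to 0.622) and 0.878, and the co-receptor gene Nrp1 at 1.31, 1.87 and 0.749. The processing enzyme gene Ece1, which cleaves the endothelin precursor, stood at 0.616 (0.457 to 0.819), 0.821 and 1.25. Egfr, the receptor for Hbegf, stood at 1.65 (1.54 to 1.76) at 64 h and Egf at 0.525 (0.381 to 0.712). Of the genes for ligand shedding, the metalloprotease gene Adam17 stood at 1.6 (1.25 to 2.04) at 64 h, and the iRhom gene Rhbdf2, which assists it, at 3.91 (3 to 5.05) at 96 h. Of the other CCN genes none was measured in PT-like nuclei.

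Matrix genes were counted over all GFP-positive nuclei. Of 18 genes, 11 of 13 measured were higher at 64 h, 7 of 11 at 96 h with 2 lower, and 8 of 13 at 28 d, against 25.8%, 36.7% and 17.0% of all measured genes higher and 16.9% lower at 96 h. Spp1 (osteopontin) stood at 5.43 (5.12 to 5.76) and 4.75 (4.43 to 5.09), and the fibrillar collagen gene Col5a1 at 4.11 (2.05 to 8.78), 14.8 (7.7 to 30.6) and 4.27 (2.09 to 9.26). Receptors outside the nephron were read in the GFP-negative library and picked after their values were seen. The PDGF alpha receptor gene Pdgfra stood there at 32.4 times (17.2 to 68.7) the GFP-positive level, and the endothelin receptor genes Ednrb and Ednra at 26.8 (16.4 to 46.8) and 10.9 (5.12 to 26.8).

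The genes whose levels ran most closely with each member were read over 40 sums of nuclei, by group and library, as Pearson's r of log2(CPM + 10). These points share libraries and depth, so r is a description. For Cyr61 they were Vmp1 (0.851), Gdf15 (0.849), Rras2 (0.829), Ctsl (0.827) and Mbd2 (0.822). For Ctgf they were Lhfp (0.823), Fhl2 (0.78), Mamld1 (0.74), Gli3 (0.73) and Arhgef25 (0.708). Among the 5 closest to Pdgfrb were Serping1 (0.915), Col6a3 (0.913) and Hgf (0.886), for Pdgfb Icam1 (0.773) and Jun (0.751), and for Edn1 Spns2 (0.751), Hspb1 (0.71) and Relb (0.699). Among the members, Cyr61 ran with Pdgfb (0.65), Edn1 (0.6), Pdgfa (0.58) and Hbegf (0.57) and less with Ctgf (0.29). Ctgf ran with Tgfb1 (0.6), and the receptor gene Pdgfrb ran against Cyr61 (-0.23) and Pdgfb (-0.26).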

How the data were processed

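Single-nucleus RNA-seq libraries (10x 3′ chemistry) from 5 groups of sorted mouse kidney nuclei were analysed, 1 library each. Per the submitters' processing notes, bcl2fastq 2.17, STAR 2.5.1b and Cell Ranger 2.1 were used with mm10. Per the labels, reads were mapped to a pre-mRNA reference, so intronic reads count. The deposited matrices hold UMI counts per gene and barcode, not normalised by the authors. How barcodes were called as nuclei, and the authors' cell types, are not given in the sources used here.

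A barcode needed 200 detected genes and no more than 10% of its UMIs from mitochondrial genes. Counts were scaled to 10000 per nucleus and log-transformed. Clusters came from 2000 variable genes without the 9 members, 30 principal components, 15 neighbours and Leiden resolution 1.0 (scanpy 1.11.5, igraph 0.11.9, scikit-learn 1.9.0), and were named from 18 marker lists that hold none of the members. The naming limits were set after the data were seen. No doublet caller was run, and mixed deep clusters stayed unnamed. Raw counts were summed per cluster group and library and divided by the summed UMIs. Levels carry exact Poisson, ratios exact conditional Poisson and shares exact Clopper-Pearson binomial 95% intervals (scipy 1.17.1). Log2 ratios use a pseudocount of 1 CPM, and TMM factors came from edgeR 4.0.16, used for scaling only. A count of 0 was set to 3 counts for a bound, which over all nuclei is 0.419 to 1.62 CPM. A ratio to such a count leaves out counting error in the higher sum, so it is not a lower limit. A group needed 20 nuclei for a level in the figures. Ratios over all nuclei, with their calls and intervals, were checked on simulated counts with known ratios. That check changed only genes with more UMIs in the uninjured GFP-positive library than Ctgf, Pdgfrb, Tgfb1, Tgfb2 and Edn1 had. Its changes were larger than 1.5-fold. It therefore does not cover the low-count ratios of these genes or changes near the 1.5-fold limit.

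All 9 members were named. From each of 13 related lists up to 4 genes with the largest absolute log2 ratio and at least 20 UMIs could be named, in PT-like nuclei or, for matrix genes, over all nuclei, as well as the 5 genes closest to each member. The members and lists were chosen with earlier results of these data known. Symbols shared by more than 1 gene number 56 and include no member. Gene positions are from the GENCODE annotation of mm10.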

Additional observations from a re-analysis of the deposited data

How the results depend on the processing

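With 1 library a group, no library could be left out and every interval covers counting error only. No paired analysis was possible because each group held 1 library and no result comes from a test. In PT-like nuclei 4 members were counted as higher at 64 h (24.3% of all measured genes). With the Havcr1-led and Vcam1-led clusters added the count was 7 (28.7%). At 96 h the count was 4 (37.4%) and became 8 with the members among the variable genes, a setting in which more of them were measured. At 28 d it was 4 (16.5%) and became 1 without the 5 nuclei richest in the member, an alternative chosen after seeing the data. An alternative count printed here without a share of all genes describes the processing only. In TAL-like nuclei the counts were 0, 0 and 0, because no member reached 10 UMIs. With no minimum beyond 1 UMI they were 5, 2 and 3, and at Leiden resolution 0.5 they were 5, 5 and 3. They were 5 at 64 h with 400 genes required and mitochondrial UMIs limited to 5%. With the Lcn2-led cluster added, also chosen after seeing the data, they were 5 (23.4%) and 4 (33.5%) at 64 h and 96 h. Each gene passed the minimum there only with UMIs of the injured library, so these counts were largely set by that minimum. The cause of the other changes was not tested. The 64 h ratio of Ctgf in PT-like nuclei, 1.64 on 5 and 8 UMIs, was 0.914 without barcodes over 4 times the median UMIs. Of 16 ratios in PT-like nuclei, 16 stayed within their interval under TMM scaling, the stricter filter and Leiden resolution 2.0, 14 at Leiden resolution 0.5 and 13 with the injury-led clusters added. Of 36 thinned shares, 17 moved without thinning and 18 moved at 300 UMIs. At Leiden resolution 0.5 the Vcam1-led nuclei joined thin limb-like nuclei. Depth limits Tgfb1, Tgfb2, Pdgfrb and, within PT-like nuclei, Ctgf and Edn1.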
